A study of Mus musculus with 8 samples.

Results

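The genes described here are the semaphorins of classes 3 to 7, their plexin and neuropilin receptors, and Chn1, a signalling protein that acts behind plexins. They were taken from a table of read counts as every row whose mouse symbol begins with Sema3 to Sema7 or with Plxna to Plxnd, the rows Nrp1 and Nrp2 and, added by name, the row Chn1. The symbol rule itself uses no measured value, but the genes, among them Chn1, were chosen with earlier results of these data known. The selection gave 33 of the 27179 rows, namely 20 semaphorins, 9 plexins, 2 neuropilins, Chn1 and Plxna4os1. The last is a long non-coding RNA whose symbol met the rule.

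The study grew 4T1.13 cells, a metastatic mouse mammary carcinoma line, in the mammary fat pad of female BALB/c mice and sequenced RNA from whole primary tumours. Cells of the miR-21-KD group carried the miArrest lentiviral vector, in which an H1 promoter drives an RNA decoy for mature miR-21. Cells of the vector control (VC) group carried that vector with a scrambled sequence, and cells of both groups carried its mCherry marker and were pools of clones. The mice carried no vector, so the decoy was in the injected cells and not in host cells of the tumour. Each group had 4 tumours, and the labels give 100000 injected cells and recovery at day 14, as miR-21-KD tumours began to regress, whereas the study's text gives an earlier day. The comparison asks which genes differ in regressing miR-21-KD tumours.

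Semaphorins are secreted or membrane-bound ligands that were first known for steering growing axons and also act on endothelial, immune and tumour cells. They bind plexins, whose cytoplasmic part turns off small Ras-family and Rap GTPases and alters the cytoskeleton, while most secreted class 3 semaphorins need a neuropilin as co-receptor. Neuropilins also bind members of the VEGF family. In mammary tumours these genes can be used by carcinoma cells, vessels, fibroblasts and leukocytes, and in RNA from whole tumours fewer cells of a type and less RNA per cell cannot be told apart.

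Because the vector holds back miR-21, the sequence of this miRNA and its seed matches among the members are shown first. The mature miR-21a-5p, from RefSeq on GRCm38.p6, lies on the minus strand at chr11:86584120-86584141. Capitals mark its seed, bases 2 to 8.
mmu-miR-21a-5p: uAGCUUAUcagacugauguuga

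The 3′UTRs of the members (GENCODE vM21 on GRCm38, the sequence of mm10) were searched on the sense strand for ATAAGCTA (8mer), ATAAGCT (7mer-m8, outside an 8mer) and TAAGCTA (7mer-A1, outside an 8mer). Of 32 members with an annotated 3′UTR, 6 held such a match, which is 18.8%, against 1721 of 13366 tested genes with a 3′UTR, or 12.9%. The 7 matches are given 5′ to 3′ on the gene's strand, with the match in capitals. They lie at chr1:62818266-62818289 (plus, Nrp2), chr1:194812183-194812206 (plus, Plxna2), chr5:13600236-13600259 (plus, Sema3a), chr5:14256503-14256526 (plus, Sema3e), chr3:88435966-88435989 (minus, Sema4a), chr15:32692032-32692055 (plus, Sema5a) and chr15:32694638-32694661 (plus, Sema5a).
Nrp2, 7mer-A1: atctctatctgcaggTAAGCTAgc
Plxna2, 8mer: gaagagagactcatATAAGCTAtc
Sema3a, 7mer-A1: agattagctgtttccTAAGCTAga
Sema3e, 7mer-m8: ttctttccactgatgATAAGCTct
Sema4a, 7mer-m8: tttattaaaaaagatATAAGCTtt
Sema5a, 7mer-A1: gaggaattaatattcTAAGCTAca
Sema5a, 8mer: tgctagtgccttttATAAGCTAtg

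The matches differ in where they lie: that of Plxna2 begins 36 bases after the stop codon in a 3′UTR of 4708 bases, whereas that of Sema4a is near the end of one of 701 bases. A match describes these letters and does not show that miR-21 binds there.

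The total of gene counts was 12134849 to 13592695 per VC tumour and 12550898 to 12783800 per miR-21-KD tumour. Levels are given as CPM, counts relative to the library total scaled with TMM factors, on which a count of 0 allows up to 3 counts, or 0.221 to 0.245 CPM, for counting error only. Differences were tested over 14382 genes with edgeR's quasi-likelihood test and Benjamini-Hochberg adjustment, and a gene is said to have risen or fallen where its adjusted p was under 0.05. On the first principal component, which held 67.5% of the variance, VC tumours lay between -78.4 and -23.3, and miR-21-KD tumours 1, 3 and 4 between 45.6 and 76.5, whereas miR-21-KD tumour 2 lay at 7.13. The summed CPM of 10 cell cycle genes was 1638 to 2251 in VC tumours, 611 to 816 in those 3 miR-21-KD tumours and 1651 in miR-21-KD tumour 2. The row of the precursor gene Mir21a held 0 counts in all 8 tumours, and the table does not measure how far the decoy held back mature miR-21.

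Of the 33 members, 32 passed the filter on low counts and 16 of these changed, which is 50.0%, against 39.1% of all tested genes. Of these, 6 rose (Sema3a, Sema3c, Sema3g, Sema4a, Plxnb3 and Plxnc1), where 19.6% of all tested genes rose. The other 10 fell (Sema3b, Sema3f, Sema4b, Sema4c, Sema4g, Sema5a, Sema6d, Sema7a, Plxna3 and Chn1), where 19.5% of all tested genes fell. These counts include Chn1, which was added by name, and Plxnb3, which passed the filter only through the miR-21-KD tumours. The median log2 fold change of the tested members was -0.0023, beside -0.01 for all tested genes. The groups did not overlap in 11 members, or 34.4% of those tested, beside 35.2% of all tested genes. Among the 19 tested semaphorins 12 changed, against 3 of the 9 plexins and neither neuropilin. Without miR-21-KD tumour 2, 17 members changed (6 rose and 11 fell), beside 46.8% of all genes tested in that fit. Leaving out other tumours lowered the count, to 6 members (18.8%, beside 20.1% of all genes) without VC tumour 3, 7 (21.9%, beside 26.5%) without miR-21-KD tumour 1, 8 (25.0%) without VC tumour 2 (beside 22.5%) or miR-21-KD tumour 3 (beside 25.8%), 9 (28.1%, beside 23.3%) without miR-21-KD tumour 4, 10 (31.2%, beside 35.5%) without VC tumour 1 and 13 (40.6%, beside 38.8%) without VC tumour 4. The share of members called was thus above that of all genes with all tumours and in 4 of these 8 fits, and below it in the other 4.

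**Figure D1:**
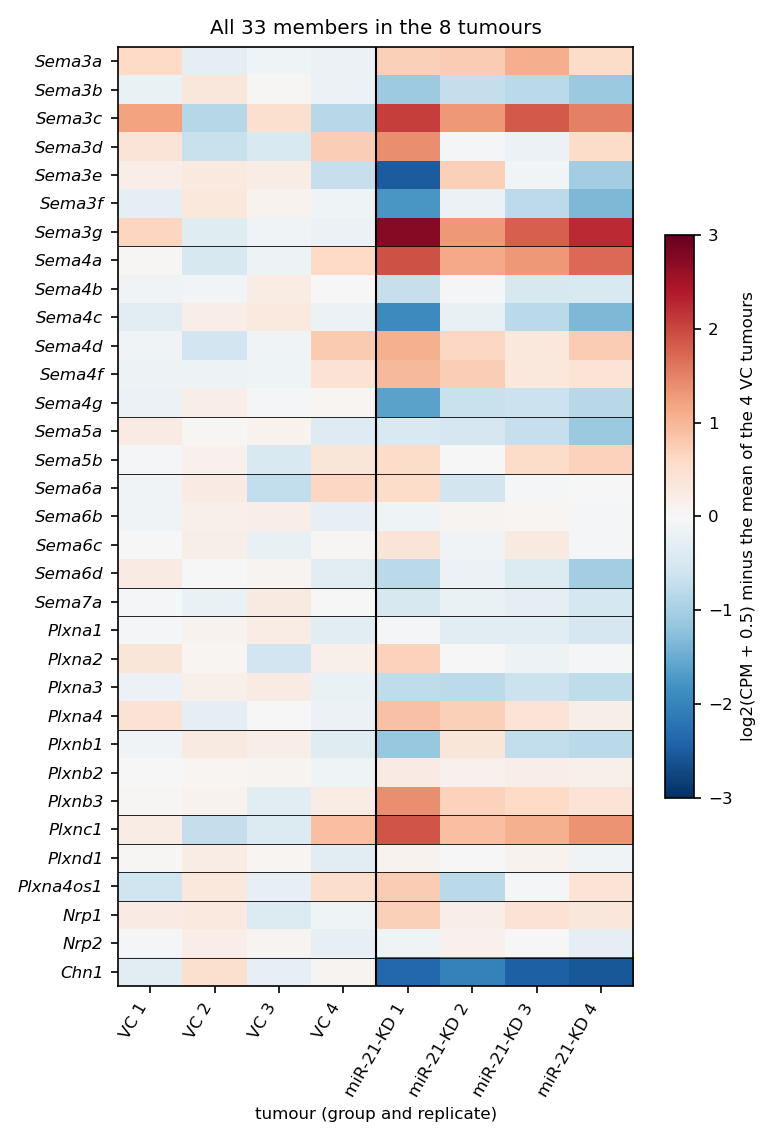
Level of each of the 33 members (rows, grouped by role) in each of the 8 tumours (columns), as log2(CPM + 0.5) minus the mean of the 4 VC tumours, with red above and blue below that mean. The columns of miR-21-KD tumours show red in Sema3g and Sema4a and blue in Chn1 and Sema3b, and in Sema3f and Sema4c the blue is palest in miR-21-KD tumour 2.

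Of the 7 class 3 semaphorins, which are secreted, 3 rose and 2 fell, beside 19.6% and 19.5% of all tested genes. Sema3g, a class 3 ligand made by endothelial cells, had 3.39, 1.44, 1.81 and 1.72 CPM in VC tumours 1 to 4, and 16.2, 5.66, 8.12 and 11.3 CPM in miR-21-KD tumours 1 to 4. The groups did not overlap, and the mean rose from 2.09 ± 0.883 to 10.3 ± 4.53 CPM (SD, n = 4 in each group), a log2 fold change of 2.29 (SE 0.39, adjusted p = 0.00679 by edgeR), the largest rise of any member. Sema3c, known from the formation of the cardiac outflow tract, had 17.1, 3.75, 10.2 and 3.84 CPM in VC tumours and 31.7, 18.4, 27.0 and 21.2 CPM in miR-21-KD tumours. VC tumours 1 and 3 were well above the other VC tumours and still below every miR-21-KD tumour. The log2 fold change was 1.49 (SE 0.47, adjusted p = 0.0369 by edgeR). Sema3a, the class 3 ligand that repels axons through Nrp1 and plexin A receptors, had 16.0, 8.46, 9.54 and 9.16 CPM in VC tumours and 17.5, 18.1, 22.9 and 15.6 CPM in miR-21-KD tumours. VC tumour 1 was just above the lowest miR-21-KD tumour. The log2 fold change of Sema3a was 0.78 (SE 0.23, adjusted p = 0.0273 by edgeR).

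Sema3b and Sema3f, neighbouring genes that are both known as tumour suppressors in other tissues, fell. Sema3b had 53.8, 78.7, 63.4 and 54.4 CPM in VC tumours and 28.6, 37.3, 35.1 and 28.5 CPM in miR-21-KD tumours, with no overlap. The log2 fold change was -0.95 (SE 0.15, adjusted p = 0.00593 by edgeR). Sema3f, which acts through Nrp2, had 138, 210.0, 183 and 156 CPM in VC tumours and 50.0, 149, 98.4 and 66.7 CPM in miR-21-KD tumours. All miR-21-KD tumours but tumour 2 were below every VC tumour, and the log2 fold change was -0.92 (SE 0.31, adjusted p = 0.0460 by edgeR). Without miR-21-KD tumour 2 it was -1.27 (adjusted p = 0.00592 by edgeR).

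Sema3e and Sema3d did not pass the threshold. Sema3e, which can bind Plxnd1 without a neuropilin, had the largest SD relative to its mean of any member in miR-21-KD tumours, with 12.5, 121, 69.1 and 35.6 CPM, against 84.0, 89.7, 85.5 and 45.1 CPM in VC tumours. The miR-21-KD values reached both above and below the VC range, and the log2 fold change was -0.35 (SE 0.57, adjusted p = 0.638 by edgeR) with all tumours, -0.97 (adjusted p = 0.153) without miR-21-KD tumour 2, and -0.017 (adjusted p = 0.979) without miR-21-KD tumour 1. Sema3d was low in both groups, at 1.31 ± 0.823 and 1.98 ± 1.34 CPM (SD, n = 4 tumours). Its log2 fold change was 0.59 (SE 0.58), and it ranged from 0.035 without miR-21-KD tumour 1 to 0.98 without VC tumour 4.

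Of the class 3 calls, those of Sema3b and Sema3g held when any 1 tumour was left out. Sema3a lost its call without VC tumour 2, 3 or 4 or miR-21-KD tumour 1 or 3 (adjusted p up to 0.0779), and Sema3c without the same tumours or miR-21-KD tumour 4 (up to 0.0855). Sema3f kept its call only when the tumour left out was miR-21-KD tumour 2 (adjusted p otherwise up to 0.116).

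Sema4a stood apart among the 6 class 4 semaphorins, which are membrane-bound ligands. This gene, which is expressed on dendritic cells and other leukocytes and provides a signal to T cells, had 48.7, 34.3, 43.3 and 72.3 CPM in VC tumours and 181, 106, 118 and 156 CPM in miR-21-KD tumours. Every miR-21-KD tumour was above every VC tumour. The group means were 49.7 ± 16.2 and 140.2 ± 34.5 CPM (SD, n = 4 tumours), with a log2 fold change of 1.50 (SE 0.25, adjusted p = 0.00663 by edgeR), and the call held when any 1 tumour was left out.

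Sema4b, Sema4c and Sema4g fell. Sema4c, a ligand of Plxnb2, had 183, 264, 278 and 202 CPM in VC tumours and 60.4, 195, 129 and 89.9 CPM in miR-21-KD tumours. Only miR-21-KD tumour 2 reached into the VC range, and the log2 fold change was -0.96 (SE 0.33, adjusted p = 0.0461 by edgeR) with it and -1.32 (adjusted p = 0.00701) without it. Sema4g had 7.96, 10.5, 8.67 and 9.40 CPM in VC tumours and 2.67, 5.50, 5.60 and 4.85 CPM in miR-21-KD tumours, with no overlap and a log2 fold change of -0.97 (SE 0.24, adjusted p = 0.0168 by edgeR). Sema4b changed less, from 58.7, 59.7, 74.7 and 62.7 CPM to 39.4, 61.2, 45.1 and 45.9 CPM, where again miR-21-KD tumour 2 alone lay within the VC range. Its log2 fold change was -0.42 (SE 0.14, adjusted p = 0.0480 by edgeR). Leaving out any 1 tumour other than miR-21-KD tumour 2 ended the calls of Sema4b (adjusted p up to 0.127) and Sema4c (up to 0.116), whereas Sema4g kept its call throughout.

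Sema4d (CD100), the ligand of Plxnb1 on T cells and other leukocytes, and Sema4f did not pass the threshold. The mean of Sema4d was 40.7 ± 17.9 CPM for VC and 62.9 ± 13.4 CPM for miR-21-KD (SD, n = 4 tumours), with a log2 fold change of 0.63 (adjusted p = 0.107 by edgeR). VC tumour 4, at 66.5 CPM, lay above 3 of the 4 miR-21-KD tumours, and without it the log2 fold change was 0.96 (adjusted p = 0.0120). Sema4f had 2.88 ± 0.753 and 4.64 ± 1.07 CPM, a log2 fold change of 0.69 (adjusted p = 0.0585 by edgeR). It passed with DESeq2 (adjusted p = 0.0304), without VC tumour 4 (adjusted p = 0.0268 by edgeR) and under a minimum of 10 counts per tumour (0.0390).

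In classes 5 to 7, the only changes were falls. Sema5a, a transmembrane ligand with thrombospondin repeats, had 27.1, 23.6, 24.7 and 17.5 CPM in VC tumours and 16.5, 16.0, 14.0 and 10.3 CPM in miR-21-KD tumours. The groups did not overlap, since the highest miR-21-KD tumour lay below the lowest VC tumour, and the log2 fold change was -0.71 (SE 0.19, adjusted p = 0.0193 by edgeR). Without VC tumour 3 the adjusted p was 0.0547. Sema6d, a ligand of Plxna1, had 92.9, 77.0, 83.0 and 61.6 CPM in VC tumours and 43.9, 68.4, 58.0 and 37.3 CPM in miR-21-KD tumours. Only miR-21-KD tumour 2 lay within the VC range, and the log2 fold change was -0.60 (SE 0.20, adjusted p = 0.0439 by edgeR).

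Sema7a, which is held to the membrane by a lipid anchor and binds Plxnc1 and integrins, had 224, 199, 276 and 226 CPM in VC tumours and 164, 199, 192 and 158 CPM in miR-21-KD tumours. The groups overlapped only between VC tumour 2 and miR-21-KD tumour 2, and the log2 fold change was -0.38 (SE 0.12, adjusted p = 0.0408 by edgeR). The calls of Sema6d and Sema7a were lost without VC tumour 1 or 3, without VC tumour 2 (Sema6d) or 4 (Sema7a), or without miR-21-KD tumour 1, 3 or 4 (adjusted p up to 0.106 and 0.108). Sema6a, Sema6b and Sema6c, further transmembrane ligands, had log2 fold changes of -0.05 (SE 0.33), -0.02 (SE 0.12) and 0.16 (SE 0.22), of which those of Sema6a and Sema6b turned positive under other settings. Sema5b was the one member left out by the filter on low counts, with 2 to 8 counts per VC tumour and 5 to 12 per miR-21-KD tumour.

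In all 5 members that fell with overlapping groups (Sema3f, Sema4b, Sema4c, Sema6d and Sema7a), miR-21-KD tumour 2 was the only miR-21-KD tumour inside the VC range. It was the highest of the 4 miR-21-KD tumours in 7 of the 10 members that fell and the lowest in 4 of the 6 that rose. This tumour also lay nearest to the VC tumours over all genes and in its cell cycle sum, as given above.

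Some calls near the threshold also depended on other settings. With no filter on low counts, Sema3c, Sema3f, Sema4b, Sema4c, Sema6d and Plxnb3 had adjusted p between 0.0501 and 0.0639 by edgeR. With at least 10 counts in every tumour, Sema4b, Sema6d and Sema7a had 0.0613, 0.0535 and 0.0589, and with upper-quartile scaling Sema4b had 0.0562. All kept their direction.

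**Figure D2:**
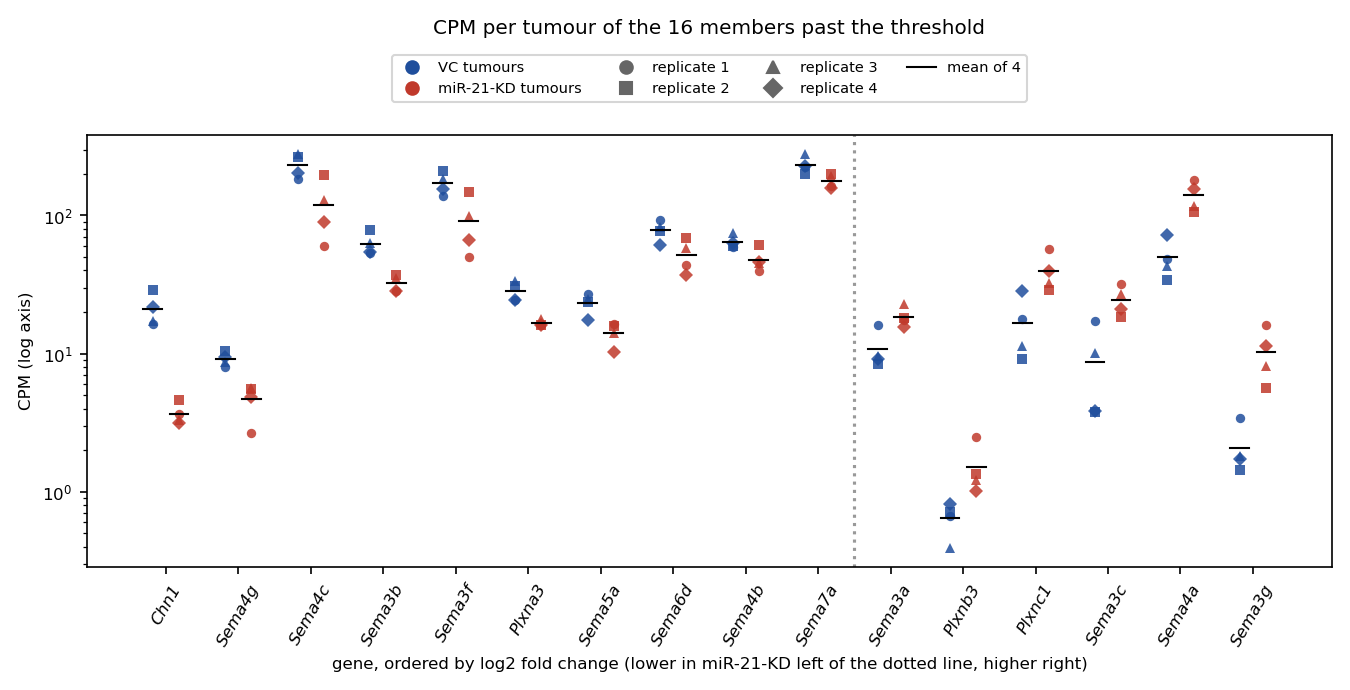
CPM (log axis) of the 16 members past the threshold in each VC (blue) and miR-21-KD (red) tumour, with a marker for each replicate number and a black line at the mean of 4 tumours, ordered by log2 fold change. The colours are fully apart in Chn1 (lowest VC tumour 16.4 CPM, highest miR-21-KD tumour 4.64 CPM) and in Sema3g (3.39 and 5.66 CPM), while the red square of replicate 2 reaches the blue points in Sema4c and Sema3f.

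Among the plexins, the receptors of semaphorins, 2 of 9 rose and 1 fell, beside 19.6% and 19.5% of all tested genes. Plxnc1, the Sema7a receptor, had 17.8, 9.09, 11.3 and 28.6 CPM in VC tumours and 57.6, 28.8, 32.2 and 39.4 CPM in miR-21-KD tumours. The groups were apart only narrowly, between VC tumour 4 and miR-21-KD tumour 2, and the log2 fold change was 1.24 (SE 0.37, adjusted p = 0.0291 by edgeR). Plxnb3, a Sema5a receptor, was low, with 0.664, 0.718, 0.394 and 0.817 CPM in VC tumours and 2.51, 1.34, 1.22 and 1.02 CPM in miR-21-KD tumours. The groups did not overlap, and the log2 fold change was 1.22 (SE 0.38, adjusted p = 0.0329 by edgeR). Plxnb3 passed the filter on low counts only through the miR-21-KD tumours, with 13 to 31 counts there and 5 to 10 per VC tumour. Its call and separation are therefore not independent of the group where it is high. With no filter on low counts its adjusted p was 0.0504 by edgeR. Both calls were lost without VC tumour 1, 2 or 3, without miR-21-KD tumour 1, and without miR-21-KD tumour 4 for Plxnc1 or 3 for Plxnb3 (adjusted p up to 0.0799 and 0.0928).

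Plxna3, which joins Nrp2 in receiving Sema3f, had 24.6, 31.0, 33.3 and 24.3 CPM in VC tumours and 16.2, 16.0, 17.7 and 16.2 CPM in miR-21-KD tumours. The miR-21-KD tumours were close to each other and all below the VC tumours. The log2 fold change was -0.77 (SE 0.13, adjusted p = 0.00656 by edgeR), and the call held when any 1 tumour was left out.

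The other plexins did not pass the threshold. Plxnb1, the Sema4d receptor, had 41.9, 54.0, 51.5 and 34.5 CPM in VC tumours and 20.0, 57.7, 26.9 and 25.2 CPM in miR-21-KD tumours. The miR-21-KD tumour 2 was the highest of all 8 tumours and the other 3 were below every VC tumour, so the log2 fold change was -0.49 (SE 0.32, adjusted p = 0.247 by edgeR) with it and -0.93 (adjusted p = 0.00601) without it. Without miR-21-KD tumour 1 it was -0.31 (adjusted p = 0.466). Plxnb2, a receptor of class 4 semaphorins, had means of 343 ± 22.2 and 388 ± 14.5 CPM (SD, n = 4 tumours) with no overlap and a log2 fold change of 0.18 (SE 0.09, adjusted p = 0.120 by edgeR and 0.0267 by DESeq2). Plxna1 had a log2 fold change of -0.31 (SE 0.14, adjusted p = 0.0973 by edgeR, and 0.0322 without VC tumour 4). Plxna2 and Plxnd1 had log2 fold changes of 0.13 (SE 0.26) and 0.02 (SE 0.12), and both turned negative under other settings.

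Plxna4 averaged 4.24 ± 1.11 CPM for VC and 6.38 ± 1.44 CPM for miR-21-KD (SD, n = 4 tumours), with a log2 fold change of 0.59 (SE 0.25, adjusted p = 0.0857 by edgeR). It passed with the replicate number as a block (adjusted p = 0.0442 by edgeR) and without VC tumour 1 (adjusted p = 0.0365). The gene span of the antisense Plxna4os1, 4436 bases, lies within that of Plxna4, and it had 4 to 24 counts per tumour. Where their exons overlap, reads of the pair cannot be told apart without knowledge of the strand setting of the counting. The log2 fold change of Plxna4os1 was 0.20 (SE 0.56), which turned negative when single tumours were left out.

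Neither neuropilin passed the threshold. Nrp1, the co-receptor of Sema3a and of VEGF-A, had 124, 129, 79.3 and 95.7 CPM in VC tumours and 173, 121, 141 and 132 CPM in miR-21-KD tumours. The groups overlapped in 1 miR-21-KD tumour, and the log2 fold change was 0.41 (SE 0.18, adjusted p = 0.0924 by edgeR and 0.0632 by DESeq2), with an unadjusted p of 0.0459 in the edgeR fit. Nrp2, the co-receptor of Sema3f and of VEGF-C, had means of 235 ± 29.9 and 223 ± 28.1 CPM (SD, n = 4 tumours), with a log2 fold change of -0.08 (SE 0.13, adjusted p = 0.657 by edgeR and 0.759 by DESeq2).

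Chn1 encodes α-chimaerin, a GTPase-activating protein for Rac that is known to act in axon guidance. It had 16.4, 28.7, 17.1 and 21.9 CPM in VC tumours and 3.64, 4.64, 3.33 and 3.13 CPM in miR-21-KD tumours. The groups were far apart, and the log2 fold change of -2.51 (SE 0.23, adjusted p = 0.00501 by edgeR) was the largest in size among the members and held when any 1 tumour was left out. Chn1 was added by name with earlier results of these data known, so its call and rank are not independent of those results. Its relative Chn2, which encodes β-chimaerin, is not a member and moved the other way, from 3.15 ± 0.493 to 6.08 ± 0.764 CPM (SD, n = 4 tumours), with a log2 fold change of 0.95 (SE 0.19, adjusted p = 0.00935 by edgeR). The lncRNA Chn1os3 overlaps Chn1 and had 2 to 12 counts per VC tumour and 0 to 5 per miR-21-KD tumour.

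**Figure D3:**
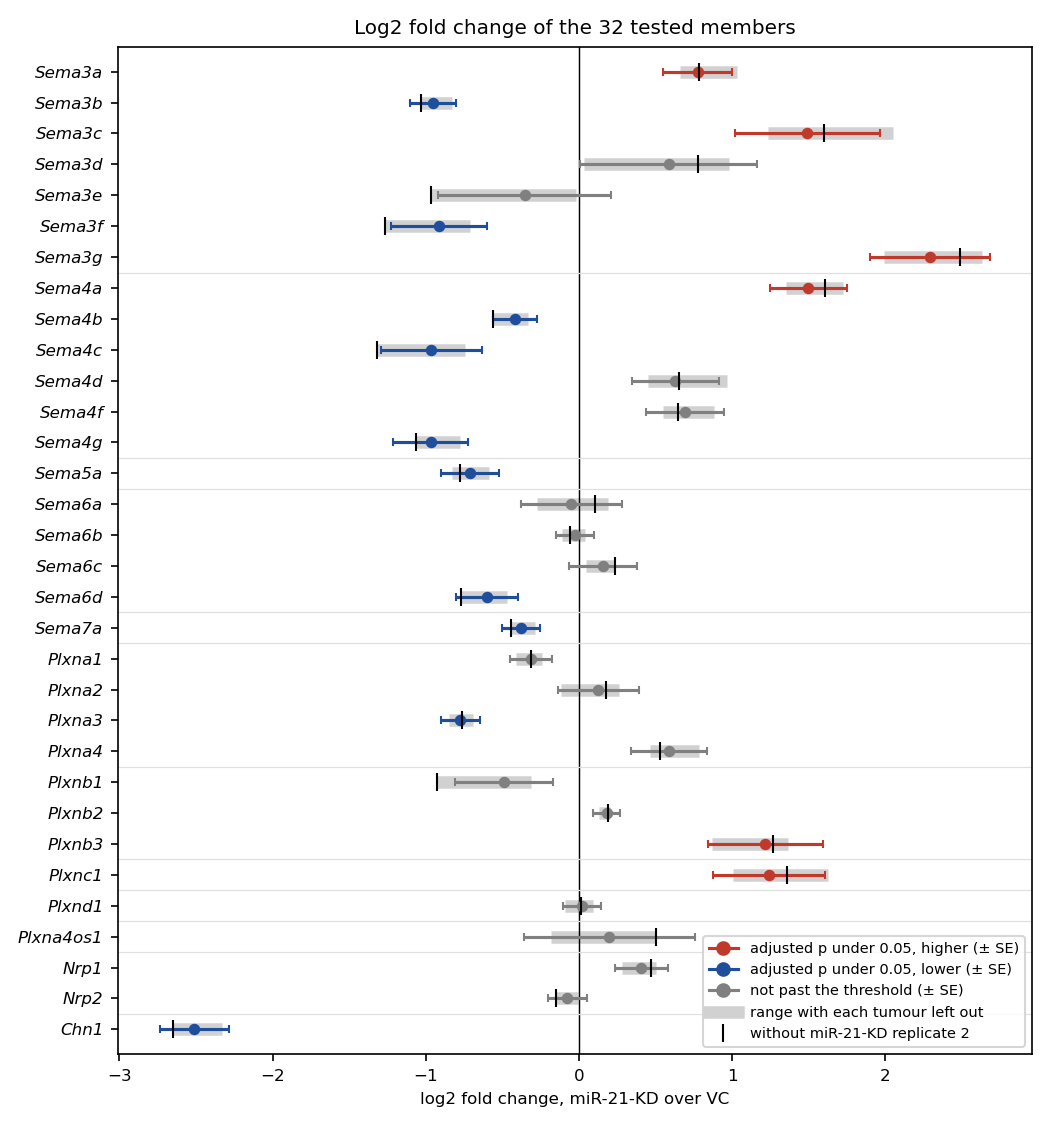
Log2 fold change of the 32 tested members (miR-21-KD over VC, horizontal axis), grouped by role, with points and SE bars in red for a rise, blue for a fall and grey for members not past the threshold, grey bands for the range when each tumour is left out, and a black tick for the value without miR-21-KD tumour 2. Chn1 (-2.51) and Sema3g (2.29) lie at the ends, and the ticks of Sema3f, Sema4c and Plxnb1 lie left of their points.

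Known ligands and receptors are set side by side here. Sema7a fell by 0.38 on the log2 scale while its receptor Plxnc1 rose by 1.24, and Sema5a fell by 0.71 while Plxnb3 rose by 1.22. Plxnb3 is low and passed the filter on low counts only through the miR-21-KD tumours, so the latter pair carries that limit. In the Sema3f system the ligand and Plxna3 both fell, while Nrp2 did not pass the threshold. For Sema4c and Sema4g, both ligands of Plxnb2, the ligands fell and the receptor's log2 fold change was 0.18. Other pairs had the same sign, namely Sema6d and Plxna1 (-0.60 and -0.31) and Sema3a and Nrp1 (0.78 and 0.41), of which only the ligands passed the threshold. Neither member passed it in Sema4d and Plxnb1 (0.63 and -0.49) or Sema3e and Plxnd1 (-0.35 and 0.02). These pairs come from general knowledge of the family, and no test was made of the pairs.

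Levels between genes were compared as CPM per kilobase of exon (CPM/kb). In VC tumours Sema7a (70.2 ± 9.80 CPM/kb), Sema4c (54.4 ± 10.8) and Sema3f (49.2 ± 9.06, SD over 4 tumours) were the most abundant semaphorins. Sema3f ranked after both in each VC tumour, and Sema7a and Sema4c exchanged the first places between tumours, within their spread. Sema3b (16.9 ± 3.14), Sema4b (15.9 ± 1.83) and Sema4a (14.5 ± 4.72) came next by mean and did not differ beyond their spread. Sema4a also overlapped with Sema3e (11.1 ± 3.03) and Sema6d (10.9 ± 1.83), and in VC tumour 2 it was below both. In miR-21-KD tumours Sema7a (54.1 ± 6.17) and Sema4a (40.8 ± 10.1) led, followed by Sema4c (27.9 ± 13.7) and Sema3f (26.1 ± 12.5), which overlapped. That order is of the means: Sema4a overlapped with Sema4c and Sema3f, and in miR-21-KD tumour 2 it was below both (30.9, 45.9 and 42.7 CPM/kb).

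The rank of Sema4a among the 20 semaphorins was thus 4 to 8 in VC tumours and 1 to 4 in miR-21-KD tumours. Its share of the summed CPM/kb of all semaphorins was 3.63% to 8.17% for VC and 11.7% to 26.5% for miR-21-KD, while that of Sema4c was 17.4% to 22.5% and 7.13% to 17.3%. The sum itself was 246 to 299 CPM/kb for VC and 198 to 265 CPM/kb for miR-21-KD, ranges that overlap. Sema3g, despite the largest rise, reached only 2.27 ± 0.999 CPM/kb.

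Among receptors, Plxnb2 was the most abundant per length in all 8 tumours, at 52.2 ± 3.38 CPM/kb for VC and 59.1 ± 2.21 for miR-21-KD (SD, n = 4 tumours). Plxnd1 (39.3 ± 6.20 and 39.8 ± 2.52), Nrp1 (29.8 ± 6.56 and 39.5 ± 6.28), Plxna1 (22.7 ± 3.54 and 18.3 ± 2.33) and Nrp2 (22.7 ± 2.88 and 21.5 ± 2.71) followed. Plxna1 and Nrp2 did not differ beyond their spread in either group. The remaining 6 plexins had mean levels of at most 5.41 CPM/kb, and the 3 plexins that changed, Plxnc1, Plxna3 and Plxnb3, were among these 6. The summed CPM/kb of plexins and neuropilins was 155 to 199 for VC and 177 to 209 for miR-21-KD.

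**Figure D4:**
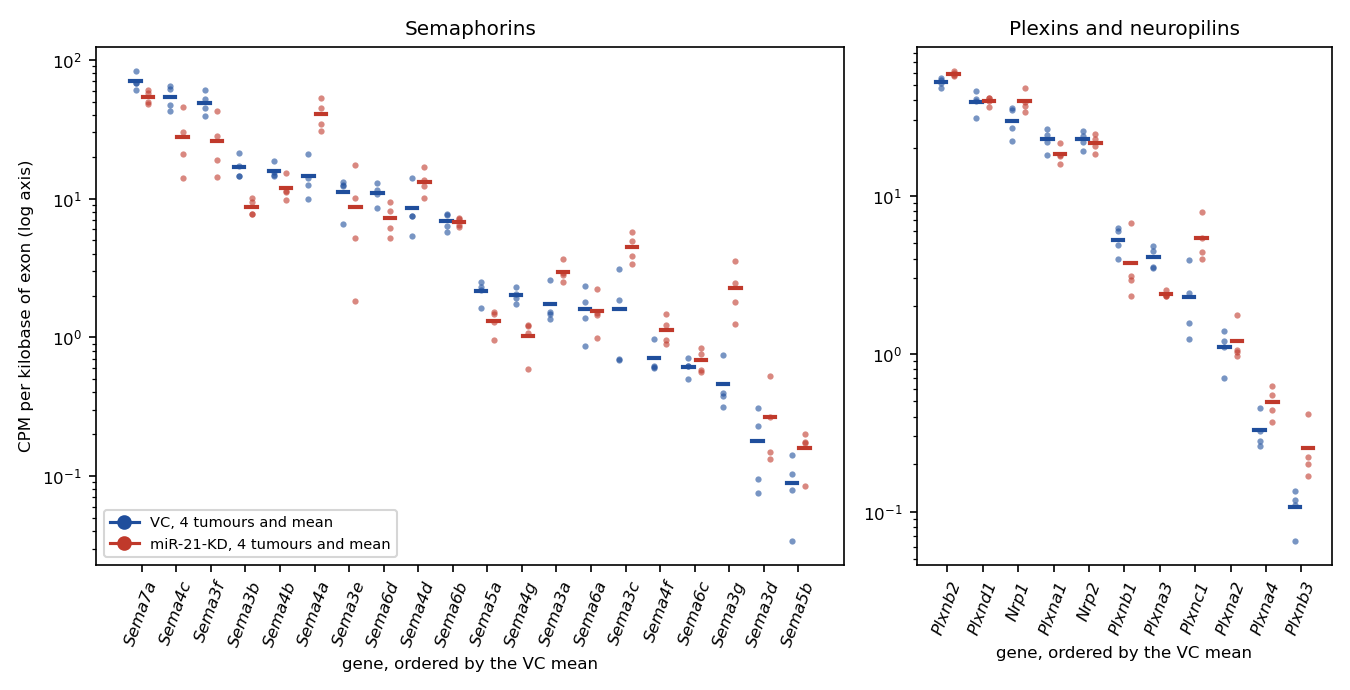
CPM per kilobase of exon (log axis) of the 20 semaphorins (left) and of the 11 plexins and neuropilins (right) in VC (blue) and miR-21-KD (red) tumours, with points for tumours and bars for the mean of 4, ordered by the VC mean. Sema4a moves from 14.5 to 40.8 CPM/kb, and Plxnb2 is the highest receptor in both groups.

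Of the members with a miR-21 seed match, 3 of 6 changed (Sema3a and Sema4a rose, Sema5a fell), against 13 of 25 tested members without, beside 39.1% of all tested genes. Their median log2 fold changes were 0.03 and -0.02. Over all tested genes these medians were 0.02 with and -0.01 without a match, and for the 8mer alone 0.03 and -0.01. Plxna2, with an 8mer close to its stop codon, had a log2 fold change of 0.13, and Sema5a, with an 8mer and a 7mer-A1, fell by 0.71.

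Some members lie near each other in the genome. Sema3b, Sema3f and Plxnb1 lie within chr9:107597674-109119915 (1.52 Mb, GRCm38), which holds 50 tested genes, of which 8 rose and 13 fell, with a median log2 fold change of -0.17. Sema3d, Sema3a, Sema3e and Sema3c lie within chr5:12383161-17730268 (5.35 Mb), which holds 8 tested genes, of which 4 rose, with a median of 0.82. These counts include the members, among them Sema3a and Sema3c of the chr5 stretch, and stand beside the 19.6% of all tested genes that rose and the 19.5% that fell.

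Beyond the members, a list of 65 partners was examined, holding co-receptors, cytoplasmic effectors and VEGF family ligands and receptors. Of these, 63 were tested, 19 rose and 14 fell, with a median log2 fold change of 0.11, beside the 19.6% and 19.5% of all tested genes. The count fell to 8 rises and 7 falls without VC tumour 3 and to 10 and 8 without VC tumour 2 or miR-21-KD tumour 3, there were 12 rises without miR-21-KD tumour 1, and 8 falls without miR-21-KD tumour 4. Of all genes, 20.1% were called without VC tumour 3, 22.5% without VC tumour 2 and 25.8% without miR-21-KD tumour 3. The share was 26.5% without miR-21-KD tumour 1 and 23.3% without miR-21-KD tumour 4. The 6 rises of smallest adjusted p were in Limk1 (from 27.6 to 47.9 CPM), the kinase that inactivates cofilin, Myl9 (15.7 to 31.2), a myosin light chain, Nrcam (6.62 to 22.8), an adhesion molecule that pairs with Nrp2, Trem2 (45.6 to 117), a myeloid receptor, Fyn (86.6 to 141), a Src family kinase, and Chn2. Their log2 fold changes were 0.79 (SE 0.12), 0.99 (SE 0.17), 1.78 (SE 0.31), 1.35 (SE 0.24), 0.70 (SE 0.13) and 0.95, with adjusted p between 0.00571 and 0.00935 by edgeR.

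The 6 falls of smallest adjusted p were in Farp1 (93.7 to 48.9 CPM), a guanine nucleotide exchange factor, Mras (50.8 to 29.7), a GTPase of the Ras family, Vegfc (40.0 to 21.2), the ligand of Flt4 and Nrp2, Rhod (21.8 to 13.6), Rnd3 (69.6 to 50.0), and Sh3bp1 (91.5 to 70.3), a GTPase-activating protein for Rac. Their log2 fold changes were -0.94 (SE 0.14), -0.77 (SE 0.13), -0.92 (SE 0.17), -0.68 (SE 0.15), -0.48 (SE 0.11) and -0.38 (SE 0.09), with adjusted p between 0.00571 and 0.0156 by edgeR. In these 12 genes the groups did not overlap. With the replicate block 22 partners rose, and 45.1% of all genes were called. Rnd1 lost its call (adjusted p from 0.0342 to 0.0607 by edgeR). Dpysl3 (0.0927 to 0.0272), Ssh1 (0.0507 to 0.0182), Gipc1 (0.0802 to 0.0389) and Vegfd (0.146 to 0.0306) passed, also by edgeR. These genes were named for this change after their values were seen. Dpysl4 and Timd2 were left out by the filter.

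Markers of several cell types moved with the groups, and their part in the changes of the members was not tested. All 10 fibroblast markers were tested and 9 rose, with summed CPM of 3185 to 8352 for VC and 10819 to 24121 for miR-21-KD. The ranges in brackets that follow are those sums, VC first. Of 12 macrophage and monocyte markers 10 rose (3004 to 4317 and 5917 to 9125 CPM), and of 8 dendritic cell markers 4 rose (61.9 to 189.8 and 242 to 393 CPM). Of 12 T cell markers 8 rose (191 to 428 and 471 to 832 CPM), of 6 NK cell markers 3 rose (17.2 to 95.0 and 72.5 to 124 CPM), and of 8 adipocyte markers 8 rose (189 to 470.3 and 651 to 1557 CPM). Of 7 tested neutrophil markers 1 rose (839 to 1456 and 1610 to 3214 CPM).

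Of 12 endothelial markers 1 was higher and 1 lower (707 to 1010 and 852 to 1118 CPM), and the pericyte list held 3 of 8 higher and 1 lower (294 to 416 and 337 to 564 CPM). Of 4 tested lymphatic endothelial markers 1, Pdpn, rose (79.4 to 174 and 163 to 288 CPM). The sum was carried by Pdpn, while Lyve1, Flt4 and Mmrn1 had negative log2 fold changes that did not pass the threshold. The carcinoma epithelium list was mixed, with 8 of 10 higher and Krt18 lower, and its sum, carried by Krt8 and Krt18, was 1307 to 2265 CPM for VC and 921 to 2030 CPM for miR-21-KD. Of 6 tested basal and squamous markers 3 rose and 1 fell (16.1 to 86.5 and 46.4 to 285 CPM), and of 7 tested mammary luminal and secretory markers 5 rose (39.5 to 180.0 and 133 to 474 CPM). Of the 10 cell cycle genes 9 fell.

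Of 5 tested B cell markers 0 passed the threshold of edgeR, 0 had an unadjusted p under 0.05, and DESeq2 called 0 (16.7 to 206 and 40.5 to 124 CPM). The remaining lists showed 1 of 7 mast cell markers higher (169 to 369 and 269 to 340.2 CPM), 1 of 7 tested Schwann and nerve markers higher and 1 lower (157 to 198 and 161 to 257 CPM), and 1 of 4 tested skeletal muscle markers higher and 1 lower (8.78 to 13.0 and 6.81 to 12.6 CPM). No marker was at 0 in all tumours.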

How the data were processed

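RNA of 8 whole tumours was analysed, 4 VC and 4 miR-21-KD. The authors deposited raw read counts per gene by Entrez identifier, with no normalization. The submitters' processing notes name mm10, Subread, featureCounts, edgeR and limma, without versions, and the strand setting is not given in the sources used here. Symbols (25275 of 27179 identifiers) and gene positions came from RefSeq GRCm38.p6, and exon lengths, 3′UTRs and the positions of seed matches from GENCODE vM21 (basic).

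Counts were tested in edgeR 4.0.16 (R 4.3.3). The filter filterByExpr (minimum count 10, total 15) kept 14382 genes with 99.9% of counts and left out 12797. After TMM scaling, the robust quasi-likelihood test compared the groups, with Benjamini-Hochberg adjustment over all tested genes and a threshold of 0.05. Replicates of a group differed beyond sampling noise. The labels number the tumours but do not say how their mice or injections relate, so p-values measure the spread between these tumours.

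The members, including Chn1 by name, and the gene lists were chosen with earlier results of these data known, although the symbol rule uses no measured value. Members past the threshold are given per tumour, others by level or fold change, and partners by the 6 smallest adjusted p in each direction. After removal of group means, same-numbered VC and miR-21-KD tumours correlated at 0.175 to 0.421 in all 4 pairs, and other pairings at -0.39 to 0.393 (mean -0.10). The numbers are from the labels. With every pair above 0.1, a fit with the replicate number as a block was added as an alternative. Whether the numbers pair the tumours is uncertain. VC tumour 3 correlated at 0.393 with miR-21-KD tumour 2 and at 0.175 with miR-21-KD tumour 3. Removal of group means also ties the mean of the other pairings to the same-numbered ones. The reported fit is unpaired, and blocked values are given where a call changes. Alternatives were DESeq2 1.42.0, limma-voom (limma 3.58.1), scaling by library size or upper quartile in place of TMM, no filter, at least 10 counts in every tumour, a replicate block, and each tumour left out. The fits were tested on simulated counts. At this depth, counting error alone is small for members above a few CPM and larger for Sema3d, Sema5b, Plxnb3 and Plxna4os1.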

Additional observations from a re-analysis of the deposited data

Results flagged for a closer look

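In 64 groups of 4 tumours (32 tested members, each in both conditions), 5 held 1 tumour far from the other 3 by Dixon's 95% limit, while chance flags about 1 group in 20. Plxna2 had 19.5 CPM in miR-21-KD tumour 1, where the others had 10.6 to 11.6 CPM. Plxna3 had 17.7 CPM in miR-21-KD tumour 3 (others 16.0 to 16.2 CPM). Sema3a had 16.0 CPM in VC tumour 1 (others 8.46 to 9.54 CPM). In VC tumour 4, Sema3e had 45.1 CPM (others 84.0 to 89.7 CPM) and Sema4f had 4.01 CPM (others 2.47 to 2.52 CPM).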

How the results depend on the processing

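All 16 members past the threshold kept their direction in each of 15 alternatives that tested them (14 for Plxnb3, which a minimum of 10 counts in every tumour left out), and 6 of them (Chn1, Plxna3, Sema3b, Sema3g, Sema4a and Sema4g) also kept the call, while 10 tested members were called by no alternative. With the replicate block 7 members rose and 10 fell, and the paired analysis changed no call of a member other than that of Plxna4, while 45.1% of all genes were called. DESeq2 called 8 higher, adding Plxnb2 and Sema4f, and 45.5% of all genes. With no filter on low counts 6 fell in place of 10 and 4 rose in place of 6, while 25.4% of all genes were called, against 39.1% in the reported fit. Leaving out each tumour gave 2 to 6 members higher, 4 to 11 lower, 8 to 19 partners higher and 7 to 15 lower. The count of rises moved most without VC tumour 2 or 3 or miR-21-KD tumour 1 (2 each) or 3 (3), and that of falls without VC tumour 3 (4), VC tumour 1 or miR-21-KD tumour 1, 3 or 4 (5 each) or VC tumour 2 (6). In those fits 20.1% to 35.5% of all genes were called. Directions turned only in members not past the threshold. Plxnd1 was at -0.0079 with library size alone and -0.014 with no filter, Sema6a at 0.0056 and Sema6b at 0.028 under the minimum of 10 counts, and Sema6b at 0.020 with upper-quartile scaling. With each tumour left out, log2 fold changes ranged from -0.12 to 0.26 for Plxna2, -0.18 to 0.50 for Plxna4os1, -0.088 to 0.094 for Plxnd1, -0.27 to 0.19 for Sema6a and -0.11 to 0.038 for Sema6b. The causes were not tested.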
